A study of Mus musculus with 18 samples.

Results

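The 9 genes followed here encode surface and adhesion molecules of the cells that line blood vessels: Pecam1, Cdh5, Esam, Icam1, Icam2, Cd34, Emcn, Mcam and Vcam1. Their rows were picked out by gene symbol, from a list drawn up with earlier results of these data known, and make up 9 of the 14068 genes listed in at least 1 of the 3 deposited tables, with all 9 listed in every table. RNA came from mice of the genotype Tie2-cre+; NuTRAP+, in which Cre recombinase driven by the Tie2 (Tek) promoter switches on a GFP-tagged ribosomal protein, so that ribosome-bound RNA of the tagged cells can be pulled down with anti-GFP antibody. The Tie2 promoter is also active in the blood cell lineage, so tagged cells need not all be endothelial. All 6 groups carried both alleles and no other treatment is named: the input (RNA of the cleared lysate) and the positive (pull-down) fraction of choroid collected with retinal pigment epithelium, of retina, and of brain. Each group had 3 libraries, numbered 421, 953 and 960, which the series' design text calls biological replicates. A retina or choroid sample pooled 2 eyes and a brain sample used 0.5 of a brain. The ages of the mice were not used here. The series' title states its subject as endothelial translatomes compared across vascular beds of the central nervous system.

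The 9 molecules hold the endothelial sheet together or let blood cells touch it. Cdh5 (VE-cadherin) is the cadherin of the endothelial adherens junction, Esam is a tight junction protein of the immunoglobulin superfamily, and Pecam1 is a homophilic adhesion molecule of cell contacts. Icam1, Icam2 and Vcam1 are immunoglobulin-family ligands for leukocyte integrins, and Icam1 and Vcam1 are known for their induction by inflammatory cytokines. Cd34 and Emcn (endomucin) are sialomucins of the luminal surface, Emcn being known as a marker of capillary and venous endothelium, and Mcam (CD146) is an adhesion molecule found on endothelial cells and on pericytes and smooth muscle.

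Promoter sequence is shown because these genes were higher in the pull-down than in the input, Mcam in brain excepted. Endothelial promoters are also known for binding sites of the ETS factor family. Of the 9 genes, 4 matched the RefSeq promoter table of GRCm38.p6. The 250 bases before the start of each follow, 5′ to 3′ on the gene's strand, with the letters GGAA, the core of ETS sites, and its reverse complement TTCC in capitals.
Icam1: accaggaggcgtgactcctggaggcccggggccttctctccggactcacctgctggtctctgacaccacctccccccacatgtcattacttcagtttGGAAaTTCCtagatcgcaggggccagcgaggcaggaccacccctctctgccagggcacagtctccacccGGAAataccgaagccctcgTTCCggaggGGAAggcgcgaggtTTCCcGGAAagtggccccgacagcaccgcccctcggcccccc
Cd34: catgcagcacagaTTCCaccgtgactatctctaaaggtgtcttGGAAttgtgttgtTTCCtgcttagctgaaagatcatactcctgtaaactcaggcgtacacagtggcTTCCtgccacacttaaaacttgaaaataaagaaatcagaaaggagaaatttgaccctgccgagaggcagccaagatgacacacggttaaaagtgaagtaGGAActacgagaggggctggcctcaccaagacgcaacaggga
Emcn: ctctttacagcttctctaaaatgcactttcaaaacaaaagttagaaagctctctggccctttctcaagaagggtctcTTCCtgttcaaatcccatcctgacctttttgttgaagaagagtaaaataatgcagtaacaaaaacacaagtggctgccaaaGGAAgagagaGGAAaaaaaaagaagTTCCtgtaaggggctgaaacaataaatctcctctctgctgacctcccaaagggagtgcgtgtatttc
Mcam: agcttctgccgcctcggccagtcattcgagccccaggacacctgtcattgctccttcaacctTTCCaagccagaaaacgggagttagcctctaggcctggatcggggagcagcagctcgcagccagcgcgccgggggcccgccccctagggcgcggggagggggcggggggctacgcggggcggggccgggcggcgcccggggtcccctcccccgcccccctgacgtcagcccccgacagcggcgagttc
These windows lie at chr9:21015690-21015939 (Icam1), chr1:194938571-194938820 (Cd34), chr3:137340828-137341077 (Emcn) and chr9:44134408-44134657 (Mcam), all on the plus strand. The Icam1 window held 7 GGAA cores over both strands, a number reached by 3.82% of the 32851 promoter windows of the same length. Cd34 held 5 (18.03% of windows held at least as many) and Emcn held 4 (33.4%). Mcam held 1, where 93.5% of windows held at least 1 and the median was 3. The Mcam window was 73.6% G and C and the Icam1 window 65.2%, while Cd34 had 46.4% and Emcn 40.8%, against a median of 52.4%. A form of the NF-kappaB site, GGG and any pair of bases and then TTTCC, was present in 1.41% of windows and in none of the 4. Other forms of that site were not searched for, so this does not show that the windows lack one. AGATA occurred 1 time in Cd34 and in none of the others, against 26.6% of windows, and TGATA occurred in none, against 22.03%. A match here is a run of letters and not a measured binding site.

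The deposited raw values, expected counts per gene, summed to between 8807306 and 14484068 per library in choroid input, 2649095 and 4587921 in choroid positive, 15243098 and 21521130 in retina input, 6260958 and 11071373 in retina positive, 9596740 and 32064355 in brain input, and 18618427 and 28277853 in brain positive. Levels are given as CPM (read counts scaled to a common library total) after scaling the libraries by edgeR's trimmed mean of M values (TMM). The 12 other endothelial marker genes checked, among them Tie1, Tek and Erg, were called higher in the positive fraction of each tissue, 12 of 12. Of all genes, 21.1% were called higher in choroid, 18% in retina and 21.2% in brain. Listing through the positive fraction alone, described below, favours such calls, and how many of the 12 it concerned was not counted. Markers of other cells moved as well. Macrophage and microglia markers were called higher for 8 of 9 in choroid, 7 of 7 in retina and 10 of 10 in brain. The direction of the 12 thus matched the label, without showing a pull-down of endothelial RNA alone. Summed macrophage and microglia markers (9 of 10 listed in choroid, 7 in retina, 10 in brain) reached 16140 to 23440 CPM in choroid positive against 1660 to 2823 in its input, 179.5 to 771.8 against 31.1 to 36.7 in retina, and 4186 to 5384 against 310.3 to 497.5 in brain. Photoreceptor markers still summed to 20240 to 33310 CPM in retina positive against 34400 to 35900 in its input, and retinal pigment epithelium markers to 3151 to 6940 CPM in choroid positive against 12320 to 19610. Fewer cells of a type and less RNA per cell cannot be told apart in such bulk samples.

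The 3 molecules of cell contacts were far higher in the pull-down than in the input of every tissue. Pecam1 (chr11:106654218-106715281, minus strand, mm10) measured 59.1, 41.6 and 36.6 CPM in choroid input (libraries 421, 953 and 960) and 720.5, 755.1 and 549.7 CPM in choroid positive. In retina it went from 3.87, 5.09 and 5.68 CPM to 420.2, 356.3 and 279.7 CPM, and in brain from 13.5, 14.4 and 9.86 CPM to 753.3, 863.8 and 575.3 CPM. The lowest positive library lay well above the highest input library in each tissue, and library 960 was the lowest of the positive libraries in all 3. The fitted folds were 14.8 in choroid (log2 3.88 ± 0.26 SE, adjusted p = 5.8e-05), 71.5 in retina (log2 6.16 ± 0.22, adjusted p = 5.71e-07) and 57.8 in brain (log2 5.85 ± 0.27, adjusted p = 4.11e-05), all by edgeR's quasi-likelihood test with Benjamini-Hochberg adjustment over all genes of the table.

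Cdh5 (chr8:104101625-104144502, plus strand), the adherens junction cadherin, showed the widest gap between tissues. Its levels were 66.4, 29.9 and 39.1 CPM in choroid input and 458.8, 241.7 and 273.4 CPM in choroid positive, 1.44, 1.59 and 1.39 CPM against 268.3, 180.9 and 115.9 CPM in retina, and 7.97, 7.74 and 3.03 CPM against 280.7, 332.0 and 193.6 CPM in brain. Retina input therefore held the lowest Cdh5 levels of the 6 groups, and no fraction pair overlapped. The fold was 7.19 in choroid (log2 2.85 ± 0.36), 126.2 in retina (log2 6.98 ± 0.36) and 41.8 in brain (log2 5.39 ± 0.43). Esam (chr9:37528089-37538319, plus strand), the tight junction protein, rose from 26.4 to 47.6 CPM across choroid input libraries to 570.1 to 611.2 CPM in choroid positive. In retina it ranged from 10.6 to 11.6 CPM in input and from 122.3 to 163.9 CPM in positive, and in brain from 11.3 to 20.7 CPM and from 411.4 to 576.4 CPM. Its enrichment was 16.2-fold in choroid (log2 4.02 ± 0.25), 12.3-fold in retina (log2 3.62 ± 0.15) and 33.3-fold in brain (log2 5.06 ± 0.32), and Esam was the contact molecule whose enrichment was smallest in retina.

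The luminal sialomucins were high in the pull-down too. Cd34 (chr1:194938821-194961292, plus strand) measured 103.4, 90.9 and 68.8 CPM in choroid input and 644.0, 513.4 and 412.0 CPM in choroid positive. It measured 1.90, 1.78 and 2.36 CPM against 209.2, 176.1 and 139.2 CPM in retina, and 38.4, 37.2 and 45.8 CPM against 486.4, 599.6 and 424.2 CPM in brain. Brain input thus already held far more Cd34 than retina input, and the folds followed, with 5.97 in choroid (log2 2.58 ± 0.24), 86.5 in retina (log2 6.44 ± 0.21) and 12.4 in brain (log2 3.64 ± 0.20).

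Emcn (chr3:137341078-137431069, plus strand) was abundant in choroid and scarce in retina. Choroid positive libraries held 922.0, 971.5 and 887.6 CPM and choroid input 104.0, 64.1 and 81.7 CPM. Retina positive held 54.7, 55.2 and 33.1 CPM against 0.328, 1.54 and 0.482 CPM in input, the latter resting on 5.0, 33.0 and 9.0 raw counts. Brain positive held 187.4, 241.6 and 147.1 CPM against 4.53, 5.10 and 8.34 CPM. In all 3 tissues the fractions stood apart, and among retina inputs library 953 was the high one. The folds were 11.1 (log2 3.48 ± 0.23) in choroid, 56.4 (log2 5.82 ± 0.43) in retina and 32.9 (log2 5.04 ± 0.33) in brain.

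Among the ligands for leukocyte integrins, Icam2 (chr11:106377656-106382641, minus strand), which resting endothelium is known to carry, was the most enriched. It lay between 6.05 and 9.67 CPM in choroid input and between 106.5 and 147.9 CPM in choroid positive, a 16.2-fold difference (log2 4.02 ± 0.25). In retina it lay between 0.268 and 0.656 CPM in input, on 5.3 to 10.0 raw counts, and between 23.6 and 29.7 CPM in positive (57.6-fold, log2 5.85 ± 0.28). In brain the ranges were 0.892 to 1.73 CPM and 72.8 to 104.7 CPM (66.1-fold, log2 6.05 ± 0.30), and Icam2 ranked 4 among the 12919 genes of the brain table by log2 fold change.

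Icam1 (chr9:21015960-21028796, plus strand) differed from Icam2 by its high level in choroid input. There it measured 79.1, 41.4 and 54.6 CPM, against 229.4, 122.2 and 165.3 CPM in choroid positive, and the fold was 2.95 (log2 1.56 ± 0.30, adjusted p = 0.00392 in edgeR). In retina the levels were 1.25, 1.26 and 1.77 CPM in input and 14.2, 8.56 and 18.2 CPM in positive (9.63-fold, log2 3.27 ± 0.32). In brain they were 2.52, 2.39 and 2.28 CPM in input and 54.0, 63.0 and 53.6 CPM in positive (23.6-fold, log2 4.56 ± 0.17). All 3 choroid inputs lay above every retina and brain input, and in each tissue the fractions did not overlap.

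Vcam1 (chr3:116110020-116129688, minus strand), the ligand of the integrin Itga4 with Itgb1, was the least enriched of the 9 in choroid. Choroid input held 74.4, 33.1 and 41.6 CPM and choroid positive 112.6, 121.0 and 92.8 CPM, a fold of 2.19 (log2 1.13 ± 0.29, adjusted p = 0.0153 in edgeR). The fractions did not overlap, but input library 421 came close to positive library 960. Without choroid input 953 the adjusted p was 0.0534 by the same test, without choroid positive 953 it was 0.0559, without both fractions of replicate 953 it was 0.145 and without both of replicate 960 it was 0.078, so the choroid call for Vcam1 rested on single libraries. In retina Vcam1 went from 6.76, 7.48 and 7.77 CPM to 51.3, 73.7 and 76.0 CPM (9.12-fold, log2 3.19 ± 0.18), and in brain from 26.6, 24.5 and 28.5 CPM to 124.2, 108.3 and 104.5 CPM (4.24-fold, log2 2.08 ± 0.15). Vcam1 is made by some macrophages as well as by endothelium, and the macrophage markers given above were also higher in each positive fraction. Across positive libraries 421, 953 and 960 they summed to 179.5, 616.3 and 771.8 CPM in retina, where library 421 was the lowest for Vcam1 too. In choroid they summed to 16140, 16150 and 23440 CPM, with library 960 the highest although it was the lowest for Vcam1, and in brain to 4760, 5384 and 4186 CPM, with library 953 the highest and library 421 the highest for Vcam1. Their part in the result was not tested.

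Mcam (chr9:44134658-44142726, plus strand) was the exception. Choroid input held 56.4, 18.4 and 31.4 CPM and choroid positive 333.6, 291.4 and 339.5 CPM (9.06-fold, log2 3.18 ± 0.37). In retina it measured 4.07, 3.64 and 3.96 CPM in input and 34.98, 11.3 and 17.5 CPM in positive (5.45-fold, log2 2.45 ± 0.38). Brain gave 28.4, 27.1 and 22.1 CPM in input and 24.1, 24.3 and 28.7 CPM in positive. These brain fractions overlapped, and the log2 fold change was -0.01 ± 0.16 (adjusted p = 0.962 in edgeR). Mcam was thus higher in the pull-down of both eye tissues, with no difference detected in brain at these levels. Retina positive library 421, the highest for Mcam, also stood apart in the mural cell markers listed in that table (3 of 9), which summed to 423.4 CPM there against 44.2 in library 953 and 24.8 in library 960. Of the mural markers, 6 of 8 in choroid positive and 2 of 7 in brain positive were called lower. The shares over all genes were 20.9% and 18.3%. In retina positive 2 of the 3 were called higher, against 18% of all genes. The part of mural cell RNA in the Mcam values was not tested.

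**Figure D1:**
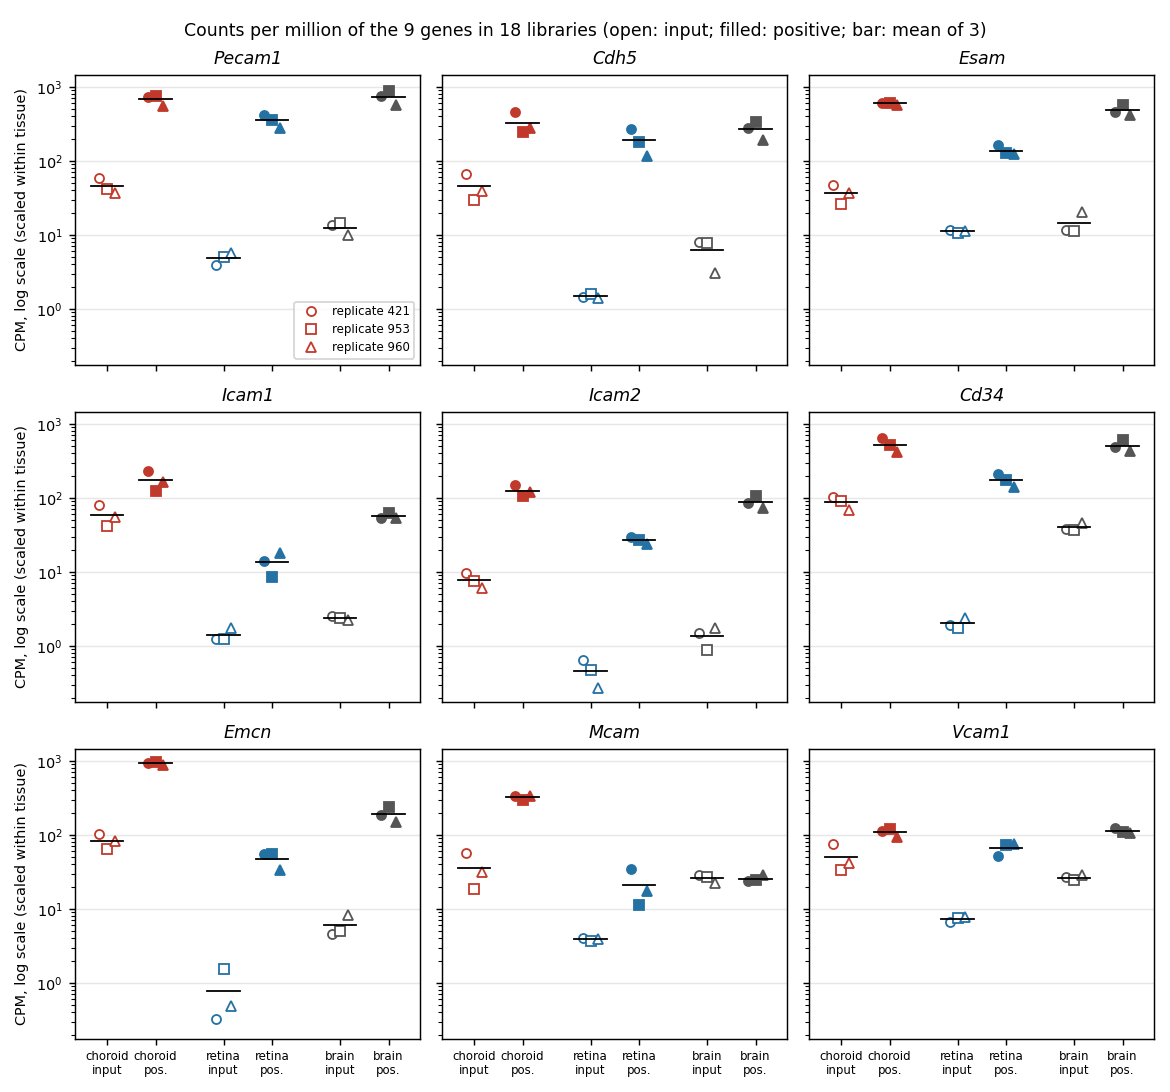
CPM of each gene in the 18 libraries on a log axis, scaled within each tissue, with open symbols for input, filled symbols for positive and a bar at the mean of 3. Input and positive stand apart in all panels and tissues except Mcam in brain, where inputs of 22.1 to 28.4 CPM overlap positives of 24.1 to 28.7 CPM. The share of all genes that stand apart in this way was not counted.

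Counted over the 9 genes, 9 were called higher in choroid positive, where 21.1% of all genes tested were higher and 20.9% lower. The median log2 fold change of the 9 was 3.18 there, against -0.03 for all genes. In retina 9 of 9 were higher, against 18% of genes higher and 13.7% lower, with a median of 5.82 against -0.01. In brain 8 of 9 were higher, against 21.2% higher and 18.3% lower, with a median of 5.04 against -0.07. With library size in place of TMM, the share of higher genes among all calls in choroid was 34.5% instead of 50.2% and the median of all genes -0.26, and the same 9 members were called higher. A gene entered a table only if all libraries of 1 fraction had a raw value of at least 50, and some of the 9 met this through the positive fraction alone: 5 in retina (Cd34, Emcn, Cdh5, Icam1 and Icam2), 3 in brain (Cdh5, Icam1 and Icam2) and 0 in choroid. For those entries a higher positive fraction was favoured by the listing itself. How many of all genes had input and positive libraries without overlap was not counted. The lack of overlap given above therefore does not set the 9 genes apart by itself.

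**Figure D2:**
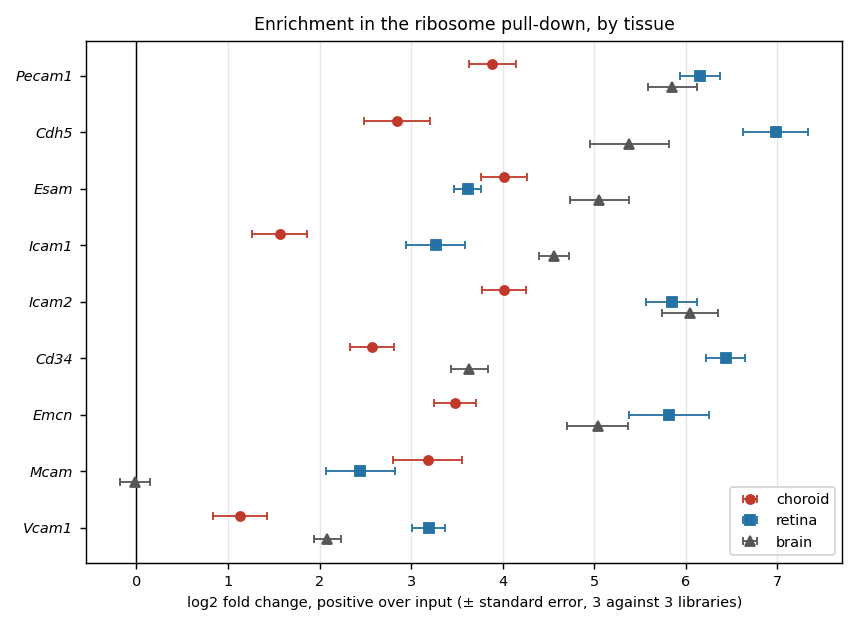
Log2 fold change of positive over input for each gene (points, with the standard error as bars) in choroid, retina and brain, 3 against 3 libraries each. Choroid values lie from 1.13 to 4.02, most of them left of the other tissues, and Mcam in brain sits at -0.01.

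Whether the enrichment differed between tissues was tested as an interaction over all 18 libraries. Listing through the positive fraction alone, given above, favoured a higher enrichment in retina for Cdh5, Cd34, Emcn, Icam1 and Icam2. In brain it did so for Cdh5, Icam1 and Icam2. The differences of these genes, and their adjusted p-values, carry that limit. The 12 other endothelial marker genes moved in a similar way. Of them, 9 were called lower and 1 higher in choroid minus retina, with a median of -2.58 against -2.04 for the members. In choroid minus brain 8 were lower and 1 higher (-1.59 against -1.39), and in retina minus brain 2 were lower and 1 higher (0.91 against 0.94). In choroid against retina, 7 of 9 genes had the lower enrichment in choroid and 0 the higher, where 18% of all genes were called lower and 10.9% higher. The gaps were largest for Cdh5 (log2 difference -4.11 ± 0.57, adjusted p = 7.53e-05 in edgeR) and Cd34 (-3.83 ± 0.31, adjusted p = 5.02e-07). Esam (0.42 ± 0.33) and Mcam (0.76 ± 0.50) did not pass. Mcam passed without choroid input 421 (1.31, adjusted p = 0.0393 in edgeR) and without retina positive 421 (1.30, adjusted p = 0.0461). In choroid against brain, 6 were lower and 1 higher (background 12.3% lower, 12.2% higher). Icam1 had the largest lower value (-2.82 ± 0.39, adjusted p = 7.03e-05 in edgeR), and Mcam was the higher one (3.36 ± 0.49, adjusted p = 0.000105), while Esam (-0.88 ± 0.33) and Vcam1 (-0.78 ± 0.33) did not pass. The smaller values depended on single libraries, with 5 to 9 members called when 1 library was left out. Cd34 (-0.89 ± 0.29) lost its call without brain input 421 or 953, brain positive 421 or 953, or choroid input 953 (adjusted p 0.0543 to 0.0919 in edgeR), and Emcn (-1.39 ± 0.46) without the same brain libraries or choroid input 421 (0.053 to 0.0972). Esam was called without brain input 960, choroid input 953 or choroid positive 421, with library size alone and in DESeq2, and Vcam1 without brain input 960 or choroid input 953 or 960 and with library size alone.

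Retina and brain differed less. There 4 genes were more enriched in retina and 1 in brain, against 8.33% and 4.97% of all genes. Cd34 (log2 difference 2.94 ± 0.31) and Mcam (2.599 ± 0.51) led the first, with Vcam1 at 1.25 ± 0.33 and Cdh5 at 1.76 ± 0.57, and Esam (-1.30 ± 0.33) was the gene more enriched in brain. The Cdh5 call was at the threshold (adjusted p = 0.0492 in edgeR). It was lost with library size alone and without any 1 of the brain or retina libraries other than brain input 960 and retina positive 960, with adjusted p up to 0.118. Vcam1 lost its call without brain input 960, brain positive 953, retina input 421 or retina positive 953 (adjusted p 0.0531 to 0.0569), and Esam without brain positive 953 (0.054). Emcn gained one without retina input 953 (1.93, adjusted p = 0.03) and Icam1 without retina positive 960 (-1.42, adjusted p = 0.0435). These differences contain the inputs as well as the positive fractions, and both are compared on their own next. With library size in place of TMM, 17.8% of all calls were higher in choroid minus retina (37.7% with TMM), 19.9% in choroid minus brain (49.8%) and 52.4% in retina minus brain (62.6%), and the median of all genes went from -0.07 to -0.33, from 0.08 to -0.26 and from 0.20 to 0.12.

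In the inputs, 9 of 9 genes were higher in choroid than in retina, where 31.9% of genes were higher and 31.9% lower. The log2 differences ran from 1.86 ± 0.28 for Esam to 6.79 ± 0.52 for Emcn. Against brain, 8 were higher in choroid input (background 26.7% higher, 27.4% lower), led by Icam1 at 4.59 ± 0.28 and Emcn at 3.83 ± 0.43, and Mcam did not pass (0.45 ± 0.34, adjusted p = 0.29 in edgeR). Without choroid input 953 Mcam did pass (0.73, adjusted p = 0.0415), and without brain input 953 Vcam1 did not (adjusted p = 0.0576). Retina input was lower than brain input for 8 of 9 (background 34.7% lower, 24.3% higher), with Cd34 the furthest apart at -4.47 ± 0.22 and Esam not passing at -0.50 ± 0.28. Icam1 (-0.89 ± 0.29) lost its call with library size alone and without brain input 421 or 960 or retina input 421 or 953 (adjusted p 0.0618 to 0.0814 in edgeR). Of all calls there 41.1% were higher, and 52.8% with library size in place of TMM. Choroid input library 421 held oligodendrocyte markers at 5184 CPM, against 197.8 and 293.5 CPM in the other choroid inputs. It was also the highest choroid input for each of the 9 genes, and without it the Mcam difference from brain input was -0.10. The part of brain or nerve RNA in these values was not tested. The 12 other endothelial marker genes had the same directions in the inputs. Of them, 12 were higher in choroid than in retina (median log2 4.56) and 11 higher in choroid than in brain (2.42). In retina against brain 10 were lower (-1.86). The medians of the 9 members were 4.205, 1.85 and -1.99, so these directions were not particular to the members.

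Setting the 3 positive fractions side by side on 1 TMM scale, all 9 genes were higher in choroid than in retina (background 32.9% higher, 39.1% lower). Emcn led at 983.9, 1023 and 944.2 CPM against 57.7, 59.0 and 34.9 CPM, a 19.5-fold difference (log2 4.29 ± 0.26, adjusted p = 3.51e-08 in edgeR). Mcam followed at 356.0, 306.9 and 361.2 CPM against 36.9, 12.0 and 18.5 CPM (15.2-fold, log2 3.93 ± 0.32), and Icam1 at 244.8, 128.7 and 175.9 CPM against 15.01, 9.15 and 19.3 CPM (12.5-fold, log2 3.64 ± 0.29). No library of these 3 genes overlapped between the tissues. The smallest differences were those of Vcam1 (log2 0.70 ± 0.18), Cdh5 (0.79 ± 0.32) and Pecam1 (0.94 ± 0.22). Without choroid positive 421 the Cdh5 difference fell to 0.45 and was not called, and it was also lost without retina positive 953 or 960.

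Against brain, 4 genes were higher in choroid positive and 0 lower (background 23.1% higher, 23.8% lower). Mcam was at 24.2, 24.3 and 29.0 CPM in brain positive, 13.2-fold below choroid (log2 3.72 ± 0.32, adjusted p = 9.15e-07 in edgeR). Emcn was 5.10-fold higher in choroid (log2 2.35 ± 0.24), Icam1 3.21-fold (1.68 ± 0.26) and Icam2 1.51-fold (0.60 ± 0.18). The Icam2 call was lost with library size alone (adjusted p = 0.0659 in edgeR) and without brain positive 421 (0.06), brain positive 960 (0.0823) or choroid positive 421 (0.0531). Pecam1 (-0.03 ± 0.22), Vcam1 (0.03 ± 0.18), Cd34 (0.14 ± 0.22), Cdh5 (0.36 ± 0.32) and Esam (0.39 ± 0.18) did not pass, although DESeq2 called Esam (0.44, adjusted p = 0.027). Retina positive was lower than brain positive for 7 of 9 (background 31.0% lower, 32.1% higher), from Vcam1 at -0.67 ± 0.18 to Icam1 at -1.96 ± 0.27. Cdh5 (-0.44 ± 0.32) and Mcam (-0.21 ± 0.30) did not pass, and without retina positive 421 Mcam was called lower in retina (-0.74, adjusted p = 0.00884 in edgeR). The 3 pairs share libraries and are not independent of each other. With library size alone, 8, 3 and 7 members were called in these 3 pairs, and in choroid against brain 35.7% of all calls were higher instead of 49.3%.

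How much of each pull-down was endothelial RNA bears on these levels. The 12 endothelial reference genes summed to 5120 to 5906 CPM in choroid positive, 1225 to 2351 in retina positive and 2650 to 3965 in brain positive, and their own differences spread from a log2 of 0.21 (Erg) to 3.17 (Egfl7) in choroid against retina. Under TMM 10 of the 12 were called higher in choroid than in retina and 0 lower. Against brain 6 were higher in choroid and 1 lower, and 9 were lower in retina than in brain. Scaling the positive libraries by those 12 genes moved the median of all genes to -2.15 in choroid against retina, -0.80 in choroid against brain and 1.20 in retina against brain, and every fitted value moved with it. Of all calls, 3.37%, 7.69% and 95.99% were then higher in these pairs, against 45.7%, 49.3% and 50.9% with TMM. Under this scaling Emcn (2.29 ± 0.32), Mcam (1.94 ± 0.32) and Icam1 (1.57 ± 0.32) were still called higher in choroid than in retina. Pecam1 (-1.07), Cdh5 (-1.17) and Vcam1 (-1.38) turned to called lower, and Esam (0.10), Icam2 (0.21) and Cd34 (-0.42) were not called. In choroid against brain Mcam (2.88 ± 0.33), Emcn (1.58 ± 0.31) and Icam1 (0.88 ± 0.31) again were called higher, and Pecam1 (-0.82) and Vcam1 (-0.79) lower. In retina against brain Mcam (0.93) and Cdh5 (0.76) were called higher and Emcn (-0.72) and Icam1 (-0.70) lower. Emcn, Mcam and Icam1 were thus higher in choroid under both scalings, and the direction of Pecam1, Cdh5, Cd34 and Vcam1 between choroid and retina depended on the scaling. Scaling by endothelial genes does not remove RNA of other tagged cells. Of 6 macrophage and microglia markers, 6 were higher in choroid than in retina positive under TMM (median log2 3.82, background 32.9%). Against brain 2 were higher and 2 lower (median 0.50). The part of macrophage RNA in the values of the 9 genes was not tested.

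**Figure D3:**
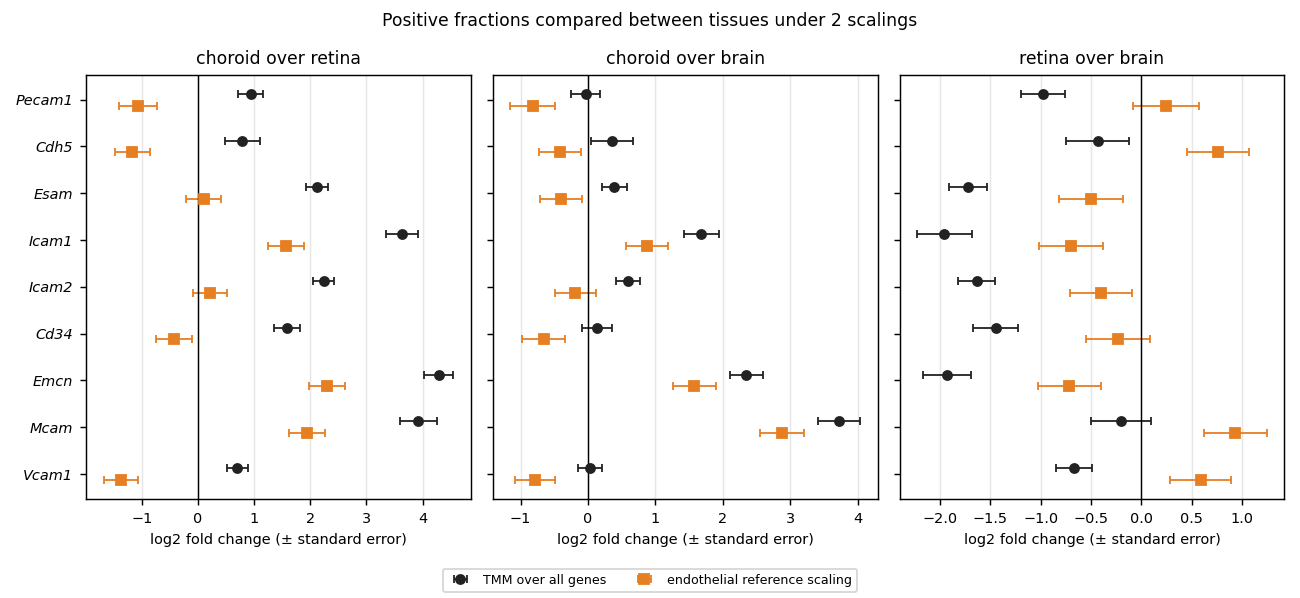
Log2 differences between positive fractions of 2 tissues (points, with the standard error as bars) for the 9 genes, under TMM over all genes and under scaling by 12 endothelial reference genes. Emcn, Mcam and Icam1 stay right of 0 in both choroid panels under both scalings, and Pecam1 moves from 0.94 to -1.07 in choroid over retina.

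A ratio of 2 genes within a library needs no scaling between libraries, but a ratio to Pecam1 moves with Pecam1 itself. Under the endothelial reference scaling Pecam1 was called lower in choroid than in retina (-1.07) and in brain (-0.82). On that scale part of each higher choroid ratio lies in the lower Pecam1. Emcn counts per Pecam1 count were 1.28, 1.29 and 1.61 in choroid positive, 0.130, 0.155 and 0.118 in retina positive, and 0.249, 0.280 and 0.256 in brain positive. The geometric mean ratio was 10.4-fold higher in choroid than in retina and 5.31-fold higher than in brain. Mcam per Pecam1 was 0.463, 0.386 and 0.617 in choroid, 0.0834, 0.0316 and 0.0628 in retina and 0.0320, 0.0282 and 0.04995 in brain, or 8.74-fold and 13.5-fold higher in choroid, while retina and brain overlapped. Icam1 per Pecam1 was 0.318, 0.162 and 0.301 in choroid, 0.0340, 0.0240 and 0.0651 in retina and 0.0717, 0.0730 and 0.0931 in brain, or 6.63-fold and 3.17-fold higher in choroid. Choroid did not overlap either tissue for any of these 3.

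The other ratios moved less. Icam2 per Pecam1 was 2.42-fold higher in choroid than in retina and 1.54-fold higher than in brain, and Esam 2.27-fold and 1.35-fold, without overlap. Under the endothelial reference scaling neither gene was called in choroid against retina (log2 0.21 and 0.10) or against brain (-0.19 and -0.40). Cd34 per Pecam1 was 0.498, 0.495 and 0.498 in the retina libraries, an almost constant share, against 0.894, 0.680 and 0.749 in choroid and 0.646, 0.694 and 0.737 in brain. Vcam1 per Pecam1 overlapped in all 3 tissue pairs, and Cdh5 per Pecam1 overlapped between choroid and each other tissue. The tissues did not overlap for 6 of the 8 genes in choroid against retina, 5 of 8 in choroid against brain and 6 of 8 in retina against brain. Among all other genes listed in the 3 tables, the ratio to Pecam1 did not overlap for 69.3%, 41.0% and 66.5%, so these counts by themselves do not set the members apart, and the sizes above are a description. The 2-sided exact permutation test of 3 against 3 cannot give a p below 0.1, and after Benjamini-Hochberg adjustment over the 24 comparisons the smallest value was 0.141.

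**Figure D4:**
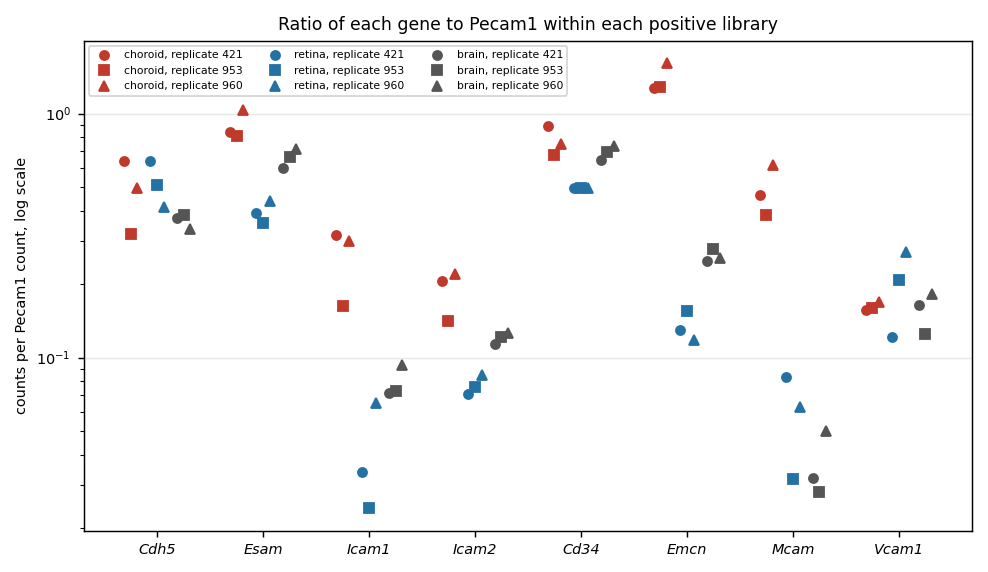
Counts of each gene per Pecam1 count within each positive library, on a log axis, by tissue and replicate. Choroid lies above retina and brain for Emcn, Mcam and Icam1, and the tissues overlap for Vcam1.

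Per length of transcript, the order of the genes changed between vascular beds. In choroid positive the levels in CPM per kilobase of exon were 220.5 ± 7.8 (SD, n = 3) for Esam and 181.9 ± 7.3 for Emcn, then 115.0 ± 18.4 for Pecam1 and 101.9 ± 8.9 for Mcam, with Vcam1 lowest at 13.01 ± 1.68. In retina positive Pecam1 (59.9 ± 11.9), Esam (50.9 ± 8.3) and Cdh5 (47.5 ± 19.2) led. Their ranges over the libraries overlapped, but within each library Pecam1 was the highest. Emcn was at 9.34 ± 2.50 and Icam1 lowest at 3.32 ± 1.17. Brain positive had Esam at 168.1 ± 29.3 and Pecam1 at 117.8 ± 22.9, with Cd34 (69.4 ± 11.9) and Cdh5 (64.2 ± 16.4) near each other, Icam1 at 13.1 ± 1.2 and Vcam1 at 12.7 ± 1.2 likewise, and Mcam lowest at 7.72 ± 0.82. By these means Mcam was the fourth of 9 in choroid, the eighth in retina and the last in brain, and Emcn was second in choroid and sixth in the other 2 tissues. The ranks in brain and that of Emcn in choroid held in each library, and the others did not. In retina library 421 Mcam stood above Emcn, and in retina library 960 Vcam1 did. Choroid library 421 had Cdh5 above Mcam, and choroid library 960 had Mcam above Pecam1.

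Over the 18 libraries, the genes whose log2 CPM followed a member most closely, among those with a mean of at least 10 CPM, were Rasip1 for Esam (Pearson r = 0.999) and Cd93 for Cdh5 (r = 0.996), followed by Tnfrsf1b for Emcn (0.995), Gpr116 for Pecam1 (0.993), Sigirr for Icam2 (0.992), Tnfrsf1a for Icam1 (0.99), Il13ra1 for Cd34 (0.988), Arap3 for Vcam1 (0.978) and Cd38 for Mcam (0.96). The highest correlation between members was that of Cd34 and Vcam1 (0.982) and the lowest that of Mcam and Pecam1 (0.641). These values describe 18 libraries that share tissue and fraction, and carry no test.

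Other genes of the endothelial surface were counted beside the same background, 21.1% higher and 20.9% lower in choroid, 18% and 13.7% in retina, and 21.2% and 18.3% in brain. Of 14 surface glycoproteins, 13 were higher in choroid positive, 8 of the 12 listed in retina and 13 of 14 in brain, and 0 were lower. In choroid the named ones are Cd200 (log2 2.99 ± 0.20), a ligand that restrains myeloid cells, the guidance receptor Robo4 (3.45 ± 0.25) and Clec14a (3.44 ± 0.28). In retina they are Eng (6.10 ± 0.29), a co-receptor of the TGF-beta family, thrombomodulin or Thbd (6.07 ± 0.31), and Robo4 (6.33 ± 0.36). In brain they are Eng (5.56 ± 0.21), Clec14a (4.99 ± 0.23) and Robo4 (5.96 ± 0.32). Cd276 was not called in choroid (-0.51 ± 0.33) or brain (-0.06 ± 0.30), nor the tetraspanin Cd81 in retina (0.18 ± 0.14).

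Of the leukocyte capture ligands, 4 of the 5 listed were higher in choroid, 2 of 5 in retina and 3 of 6 in brain, where 1 was lower. Shares of so few genes, such as 2 of 5, cannot be read closely against the background. Cd300lg, a mucin-like receptor of capillaries, stood at 3.85 ± 0.22 in choroid. Podxl, a sialomucin related to Cd34, rose by a log2 of 3.39 ± 0.25 in choroid, 1.40 ± 0.18 in retina and 5.25 ± 0.19 in brain, and Bcam, a laminin receptor, by 2.29 ± 0.19, 3.82 ± 0.15 and 4.94 ± 0.22. Alcam fell in brain (-1.43 ± 0.17) and was not called in choroid (0.20 ± 0.21). The chemokine-binding Ackr1 was not called in retina (0.18 ± 0.11) or brain (1.13 ± 0.53).

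Of the junction partners, 5 of 13 were higher and 1 lower in choroid, 7 of 14 and 1 in retina, and 8 of 14 and 4 in brain. F11r (JAM-A), a tight junction protein, was higher in choroid (2.04 ± 0.23), retina (2.57 ± 0.13) and brain (4.32 ± 0.19). Jup (plakoglobin), which binds the tail of Cdh5, was at 2.88 ± 0.21 in choroid, where Nectin1 fell (-1.35 ± 0.24) and the catenin Ctnna1 was not called (0.00 ± 0.17). In retina the catenins Ctnnd1 (0.79 ± 0.17) and Ctnnb1 (0.73 ± 0.16) rose and Afdn was not called (0.43 ± 0.19). In brain Ctnna1 (2.09 ± 0.21) and Jam2 (2.36 ± 0.25) rose and Cd99l2 was not called (-0.13 ± 0.13).

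Among integrins and other counter-receptors on leukocytes, 5 of 6 were higher in choroid, 3 of 4 in retina and 4 of 5 in brain. Itgb2, the beta chain of the Icam1-binding integrins, was at 2.78 ± 0.23 in choroid and 4.03 ± 0.17 in brain. Selplg, the ligand of P-selectin, was at 2.19 ± 0.36 in choroid, 4.02 ± 0.53 in retina and 3.79 ± 0.25 in brain, and Itgam, an alpha chain that pairs with Itgb2, at 1.88 ± 0.33, 3.60 ± 0.50 and 3.36 ± 0.19. In retina Itgb1, the beta chain of many matrix receptors, was at 1.83 ± 0.17. Itga4, part of the Vcam1 receptor, was not called in choroid (0.23 ± 0.26), retina (-0.22 ± 0.12) or brain (-0.12 ± 0.16). The macrophage marker sums given above were also higher in each positive fraction, and their part in the result was not tested.

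The annotation places antisense genes over exons of Icam1, Cd34, Mcam and Vcam1. Whether the authors' counting used strand is not given in the sources used here, so reads of those antisense genes cannot be told apart from reads of these 4 genes.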

How the data were processed

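RNA was measured in 18 libraries made with a directional kit. The authors deposited 1 table per tissue, with expected counts per gene, not normalized, in its raw columns. Of these, 72.0% in choroid, 91.5% in retina and 90.2% in brain were not whole (tolerance 0.001), and rounded values entered the models. The deposited normalized columns are log2 values, centred on the median input as a check against the raw columns showed, and were left out of all tests. Per the submitters' processing notes, the build was mm10 and DESeq was used. For aligner and counter: not given in the sources used here.

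Counts were fitted with edgeR 4.0.16 (R 4.3.3; filterByExpr, which removed no gene, TMM, quasi-likelihood F test, Benjamini-Hochberg over all genes, calls at an adjusted p under 0.05), by tissue for enrichment, over 18 libraries for its differences and over 9 for positive fractions or inputs. A standard error is the size of the log2 fold change over the root of F. The test was run first on simulated data. Alternatives were DESeq2 1.42.0, library size scaling, a filter of at least 10 CPM in 3 libraries (it removes Icam1 in retina), a replicate block, leaving out each library or both fractions of a replicate, one fit of all 18 and endothelial reference scaling. Precision is limited by 3 libraries a group and by low input counts. Exon lengths are from the GENCODE annotation of mm10.

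The members and lists were chosen with earlier results of these data known. All 9 members are named. From each list, and for each of the enrichments, up to 3 called genes with the smallest adjusted p and the uncalled gene of highest level are named. For each member the most correlated gene is named. The input is part of the same lysate as the positive fraction, so replicate numbers pair them. Deviations of paired libraries from their group means had correlations between 0.227 and 0.642 (choroid), -0.018 and 0.091 (retina), and 0.016 and 0.175 (brain). The same numbers recur in all 3 tissues. Libraries of the same number and fraction in different tissues had correlations between -0.174 and 0.593, the highest for choroid and brain input 960. The main tests treated all libraries as independent, and only the replicate block used the numbers.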

Additional observations from a re-analysis of the deposited data

Results flagged for a closer look

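The enrichment of several members differed between tissues by the test of the difference itself (edgeR over 18 libraries). The listing itself favoured a higher enrichment in retina for Cdh5, Cd34, Emcn, Icam1 and Icam2, and in brain for Cdh5, Icam1 and Icam2. In choroid minus retina the log2 differences were -2.26 for Pecam1, -4.11 for Cdh5, -1.68 for Icam1, -1.81 for Icam2, -3.83 for Cd34, -2.34 for Emcn and -2.04 for Vcam1. In choroid minus brain they were -1.79 for Pecam1, -2.35 for Cdh5, -2.82 for Icam1, -1.86 for Icam2, -0.89 for Cd34, -1.39 for Emcn and 3.36 for Mcam. In retina minus brain they were 1.76 for Cdh5, -1.30 for Esam, 2.94 for Cd34, 2.599 for Mcam and 1.25 for Vcam1. The 12 endothelial reference genes had a median of -2.58 in choroid minus retina, -1.59 in choroid minus brain and 0.91 in retina minus brain.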

How the results depend on the processing

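Of the alternative values for single members, 1273 kept their direction and side of the threshold, 49 lost the call, 17 gained it and 34 changed sign. The replicate block, a term for the replicate number, changed none of 108 member calls: it called 9, 9 and 8 members in choroid, retina and brain. It pairs the fractions in the enrichment fits, but in the fits of positive fractions or inputs alone it joins tissues and pairs no fractions. Endothelial reference scaling called 4 members in retina against brain, and changed the sign of these log2 differences between positive fractions. In choroid against retina it gave Pecam1 -1.07, Cdh5 -1.17, Cd34 -0.42 and Vcam1 -1.38, in choroid against brain Cdh5 -0.41, Esam -0.40, Icam2 -0.19, Cd34 -0.66 and Vcam1 -0.79, and in retina against brain Pecam1 0.25, Cdh5 0.76, Mcam 0.93 and Vcam1 0.59. In choroid against brain DESeq2 gave Pecam1 0.015, and library size alone gave Cd34 -0.023 and Vcam1 -0.13. One fit of all 18 libraries called 2119 genes in retina enrichment.

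Leaving out libraries gave 1972 to 5073 genes called for choroid enrichment, 832 to 5748 for retina enrichment and 1455 to 9618 for brain enrichment, where 9312 were called without brain input 960 alone. For retina minus brain it gave 748 to 2383 genes and 2 to 6 members called. Its log2 values ran from -0.205 to 0.108 for Mcam enrichment in brain and from -0.402 to 0.231 for Icam2 in retina minus brain. For choroid against brain positives they ran from -0.177 to 0.092 for Pecam1, -0.046 to 0.281 for Cd34 and -0.041 to 0.132 for Vcam1. For Mcam they ran from -0.739 to 0.087 in retina against brain positives and from -0.096 to 0.725 in choroid against brain inputs. Each of these values that changed sign belonged to a member that was not called with all libraries. The causes were not tested.

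Low counts limit some inputs: in retina input Emcn rested on 5.0 to 33.0 raw counts and Icam2 on 5.3 to 10.0.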
